A study of Homo sapiens with 30 samples.

Results

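The regions described here lie at 10 gene loci that carry common risk variants for type 2 diabetes. The genes are TCF7L2, GLIS3, SLC30A8, CDKAL1, IGF2BP2, WFS1, JAZF1, ADCY5, KCNQ1 and CDKN2B, chosen with earlier results of these data known. Their regions were taken by position alone, as every deposited region that reaches within 100 kb of a start site on hg19. Of 112903 deposited regions, 150 met this rule. They comprise 131 of the 89929 regions listed as different between HNF6 knockout and control cells, and 19 of the 22974 regions of the wild-type clusters. The cells were HUES8, an established human embryonic stem cell line, either knocked out for HNF6 (HNF6-KO) or wild type (Con). HNF6, also called ONECUT1, is a homeobox protein that acts during liver and pancreas formation, and the series asks for its role during pancreatic differentiation in vitro. Open chromatin was mapped by ATAC-seq, a method that tags exposed DNA with a transposase, in 3 samples of each genotype at each of 5 stages. The stages were undifferentiated cells (ESC), definitive endoderm (DE), the primitive gut tube stage (GT), endoderm of the pancreas (PE) and, last, progenitors of the pancreas (PP). The labels name no treatment other than the differentiation. They do not say whether the knockout line is a single clone or whether the 3 samples of a group are separate differentiations, so the spread between samples may be technical.

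Each listed region carries 3 whole numbers for each genotype, called values here, which measure accessibility over the region. The sources used here give neither their scaling nor the depth of the libraries. A region stands in the HNF6-KO list of a stage when its mean was higher in HNF6-KO cells and in the Con list when it was higher in Con cells. All log2 ratios below are of HNF6-KO over Con, computed from the means with 1 added to each, so that a negative ratio means lower accessibility in HNF6-KO cells. The regions had been selected by the authors for a difference, and 3 values against 3 cannot give a two-sided exact permutation p under 0.1, so no further test was run on them. In such bulk samples a change in the number of cells with an open region and a change in its openness per cell cannot be told apart. The files hold no expression values, so the stages could not be checked against markers.

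The 10 genes act in different parts of glucose control, and each was linked to the disease by genome-wide association studies. TCF7L2 is a transcription factor of the Wnt pathway, GLIS3 a zinc finger factor needed for beta cell development, and JAZF1 a zinc finger cofactor of nuclear receptors. CDKN2B encodes a cyclin-dependent kinase inhibitor, CDKAL1 a tRNA-modifying enzyme and IGF2BP2 an RNA-binding protein. WFS1 encodes a protein of the endoplasmic reticulum membrane whose loss causes Wolfram syndrome, SLC30A8 the zinc transporter of insulin granules, ADCY5 an adenylate cyclase and KCNQ1 a potassium channel subunit. Risk variants at most of these loci are noncoding, which is why accessible DNA around them is of interest. Whether a listed region here contains a risk variant was not examined.

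At 7 of the 10 loci a listed region lay at the start site, meaning within 500 bp of the site rounded to the nearest kb. For 6 of these genes a RefSeq promoter was available, and 4 are shown, chosen to span the range of CpG content among genes listed at different stages. RefSeq starts need not be the start sites used to choose regions, and positions were not converted between builds. Each line gives the 250 bases before the RefSeq start on GRCh38, 5′ to 3′ in the direction of transcription, with CpG dinucleotides in capitals.
TCF7L2 promoter, GRCh38 chr10:112949997-112950246, plus strand: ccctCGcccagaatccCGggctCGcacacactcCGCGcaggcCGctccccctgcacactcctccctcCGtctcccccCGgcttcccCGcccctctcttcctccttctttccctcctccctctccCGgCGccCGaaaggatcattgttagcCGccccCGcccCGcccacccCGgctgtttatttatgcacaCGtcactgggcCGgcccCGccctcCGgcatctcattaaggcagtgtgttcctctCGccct
GLIS3 promoter, GRCh38 chr9:4298497-4298746, minus strand: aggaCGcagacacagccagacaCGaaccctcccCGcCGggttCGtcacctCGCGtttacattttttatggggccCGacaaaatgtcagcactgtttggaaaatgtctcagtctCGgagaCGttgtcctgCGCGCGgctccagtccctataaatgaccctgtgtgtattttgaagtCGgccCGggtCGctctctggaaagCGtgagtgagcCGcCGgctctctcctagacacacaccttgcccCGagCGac
IGF2BP2 promoter, GRCh38 chr3:185825043-185825292, minus strand: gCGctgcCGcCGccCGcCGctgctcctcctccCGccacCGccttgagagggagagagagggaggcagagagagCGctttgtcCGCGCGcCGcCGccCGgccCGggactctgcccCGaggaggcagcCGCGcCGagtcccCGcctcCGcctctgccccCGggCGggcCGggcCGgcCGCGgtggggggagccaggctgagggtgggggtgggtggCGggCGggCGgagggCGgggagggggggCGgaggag
CDKN2B promoter, GRCh38 chr9:22009306-22009555, minus strand: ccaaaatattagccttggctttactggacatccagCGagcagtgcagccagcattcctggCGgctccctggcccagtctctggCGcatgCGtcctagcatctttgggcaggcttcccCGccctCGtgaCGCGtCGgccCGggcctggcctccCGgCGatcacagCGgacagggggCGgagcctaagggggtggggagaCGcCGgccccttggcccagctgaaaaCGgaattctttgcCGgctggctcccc
The 6 promoters were rich in CpG. They held between 18 (CDKN2B) and 32 (IGF2BP2) CpG dinucleotides in these 250 bases, against a median of 11 over the 35114 promoters of the table. Their GC content ranged from 57.6% at GLIS3 to 81.6% at IGF2BP2, where the median of all promoters was 58%. The CDKAL1 promoter, whose start site lay in no listed region, held 7 CpG dinucleotides and 37.2% GC. The words ATTGAT and ATCGAT, the core of ONECUT binding sequences, were searched on both strands. Neither was found in the 6 windows or in that of CDKAL1, and 6.19% of all promoters of this length held at least 1 of them.

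Accessibility at the start sites was higher in HNF6-KO cells in all 7 listed cases, and the differences were small, with log2 ratios between 0.35 and 0.49. The 7 regions were listed at ESC (GLIS3, WFS1, JAZF1, ADCY5), PE (IGF2BP2) and PP (TCF7L2, CDKN2B). Over all listed regions of these stages, 57.4% were in the HNF6-KO list at ESC, 43.9% at PE and 88.7% at PP. Among listed regions whose mean over both genotypes was at least as high as in the lowest of the 7 (574), the shares were 57.8% at ESC, 67.5% at PE and 66.4% at PP. That lowest value was from ESC and was used at each stage, although values of different stages may not share a scale. These regions were singled out after their values were seen, so no test is given. Their shared direction is given for the cut of 500 bp only. Farther out, listed regions went both ways. At ESC, 1.3 kb downstream of the start, the log2 ratio was -0.42 at IGF2BP2 and 1.04 at TCF7L2.

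At PE the IGF2BP2 region (chromosome 3, 185542751 to 185544300) had 1806, 2026 and 2054 in HNF6-KO and 1708, 1228 and 1599 in Con cells. Per kb its mean was 1266 in HNF6-KO and 975 in Con cells, and the values did not overlap between genotypes. At CDKN2B (chromosome 9, 22008551 to 22009800) the values at PP were 897, 734 and 926 in HNF6-KO and 728, 673 and 592 in Con cells, again without overlap, though the nearest values, 734 and 728, were close. TCF7L2 at PP (chromosome 10, 114709451 to 114710400) had 978, 792 and 1167 in HNF6-KO and 690, 796 and 809 in Con cells, so that the lowest HNF6-KO value lay within the Con range. The log2 ratio of the IGF2BP2 region was 0.38, and 0.25 without the second Con value, and that of the TCF7L2 region 0.36, and 0.21 without the third HNF6-KO value.

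At ESC, ADCY5 (chromosome 3, 123166551 to 123168900) had 1399, 1239 and 1389 in HNF6-KO and 1097, 892 and 1171 in Con cells. GLIS3 (chromosome 9, 4299201 to 4300650) had 617, 653 and 706 in HNF6-KO and 536, 450 and 481 in Con cells. The genotypes were separated at both of these start sites. They overlapped at WFS1 (chromosome 4, 6270651 to 6271950), with 971, 1232 and 1335 in HNF6-KO and 1081, 887 and 759 in Con cells. They overlapped at JAZF1 too (chromosome 7, 28218601 to 28220300), with 502, 748 and 931 in HNF6-KO and 475, 442 and 636 in Con cells, and its log2 ratio of 0.49 was 0.27 without the third HNF6-KO value. In all, 4 of the 7 regions had values that did not overlap between genotypes, where 78.5% of all listed regions did. Start sites were given to the nearest kb. The WFS1 region ends just before the rounded site, and the other 6 contain it.

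**Figure D1:**
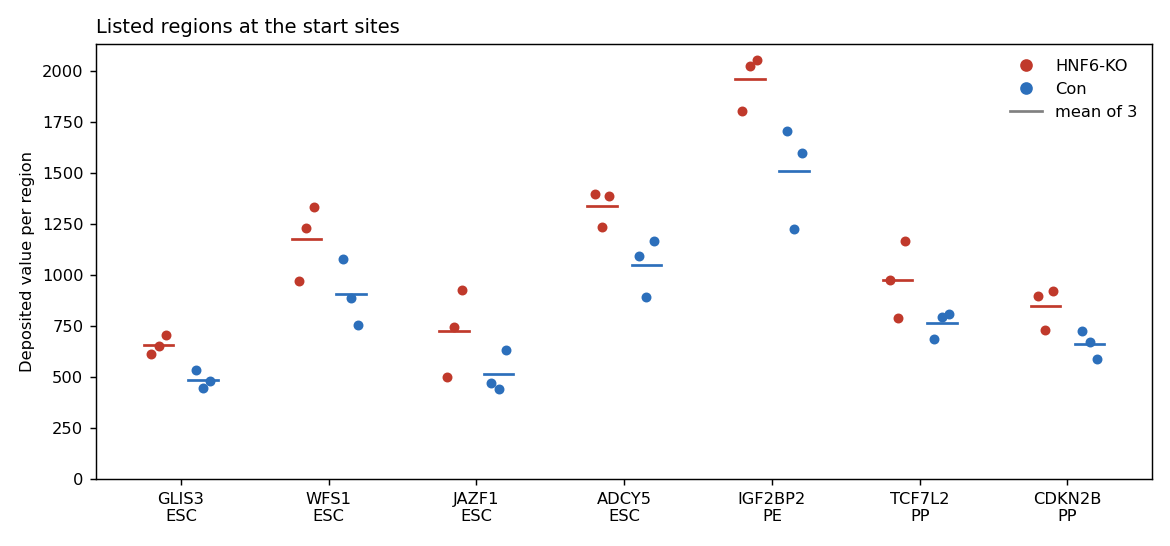
Deposited values (vertical axis, linear, per region) of the 7 listed regions at start sites, by gene and stage. Points are the 3 values of HNF6-KO (left, red) and Con (right, blue), and bars their means; the HNF6-KO mean is higher in each pair, and the points overlap at WFS1, JAZF1 and TCF7L2.

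Listed regions were spread unevenly over the loci. KCNQ1 had 37, WFS1 29, ADCY5 27, TCF7L2 13, IGF2BP2 9, JAZF1 6, GLIS3 5, CDKN2B 3 and CDKAL1 2, while SLC30A8 had none in any list. For comparison, the autosomes were tiled in windows of 200 kb, of which 83% held at least 1 listed region, with a median of 3. At least as many regions as at KCNQ1 were found in 1.21% of the tiles, as many as at WFS1 in 2.97% and as many as at ADCY5 in 3.63%. Among tiles of the gene's own chromosome these shares were 2.96%, 1.36% and 3.23%. The flanks from 100 kb to 1 Mb on either side held 337 listed regions at KCNQ1, 159 at WFS1 and 111 at ADCY5. Listed regions were thus dense beyond these 3 windows too. The tiles differ in gene content, which was not matched. At SLC30A8 the nearest listed region began 141 kb from the start site. It was higher in Con cells at DE, with 236, 89 and 116 in HNF6-KO and 254, 358 and 271 in Con cells.

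By stage, the loci together held 33 listed regions at ESC, 23 at DE, 18 at GT, 15 at PE and 42 at PP. HNF6-KO was the higher genotype in 18 of 33 at ESC (54.5%, exact 95% binomial interval 36.4 to 71.9) and in 18 of 23 at DE (78.3%, 56.3 to 92.5). It was higher in 14 of 18 at GT (77.8%, 52.4 to 93.6), 9 of 15 at PE (60%, 32.3 to 83.7) and 37 of 42 at PP (88.1%, 74.4 to 96.0). The shares over all listed regions were 57.4%, 62.8%, 73%, 43.9% and 88.7% in the same order of stages. Each of them lay inside the interval for the loci, which covers counting error only. With a -log10 p of at least 10 in the authors' deposited tables, 15 of the 131 regions were left.

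The differences were of a size common in the lists, with fewer large ones, mainly through KCNQ1. A ratio of at least 2-fold was found in 45 of the 131 regions (34.4%), where 45.4% of all listed regions reached it. KCNQ1 had 4 such regions of 37, WFS1 9 of 29, TCF7L2 4 of 13, ADCY5 14 of 27 and IGF2BP2 7 of 9. The median log2 ratio was 0.85 in the HNF6-KO lists and -0.85 in the Con lists, against 0.96 and -0.90 over all regions. The regions were also wider, with a median of 1000 bp against 750 bp. Values did not overlap between genotypes in 102 regions (77.9%), where 78.5% of all regions had such values. By stage the count was 25 of 33 at ESC, 18 of 23 at DE, 15 of 18 at GT, 9 of 15 at PE and 35 of 42 at PP. Over all regions the shares were 76.1%, 77.5%, 82.6%, 77.5% and 79.8% in the same order. At PP the first of the 3 HNF6-KO values was the highest in 27 of the 37 HNF6-KO regions, and in 57.6% of that whole list. Without it the median log2 ratio of the 37 was 0.76 in place of 0.94, and all 37 still had a higher mean in HNF6-KO cells. At DE the first HNF6-KO value was the highest in 13 of 18 HNF6-KO regions, at GT the third in 10 of 14 and at ESC the third in 11 of 18. In the whole HNF6-KO lists of these stages the same value was the highest in 63.2%, 59.2% and 48.1%. At PE the third Con value was the highest in 5 of 6 Con regions, and in 47.6% of that whole list. The median ratio of the 9 HNF6-KO regions at PE was 0.61, and 0.43 without their first value. The part of single values in the differences was not tested further.

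**Figure D2:**
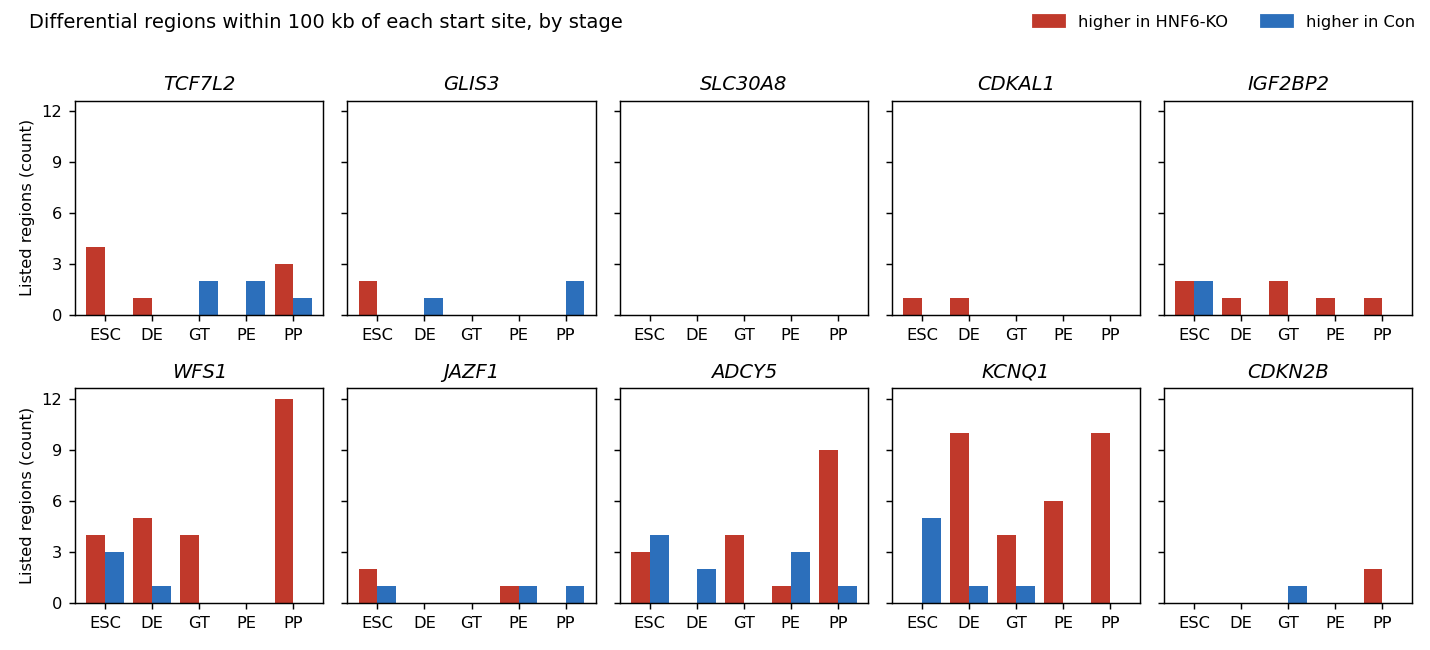
Number of listed regions (vertical axis, linear) within 100 kb of each start site, by stage; red bars (left) count regions higher in HNF6-KO and blue bars (right) regions higher in Con. KCNQ1 has 5 Con regions at ESC, and 10 HNF6-KO regions beside 1 Con region at DE; WFS1 has 12 HNF6-KO regions at PP and no region at PE, and SLC30A8 has none.

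**Figure D3:**
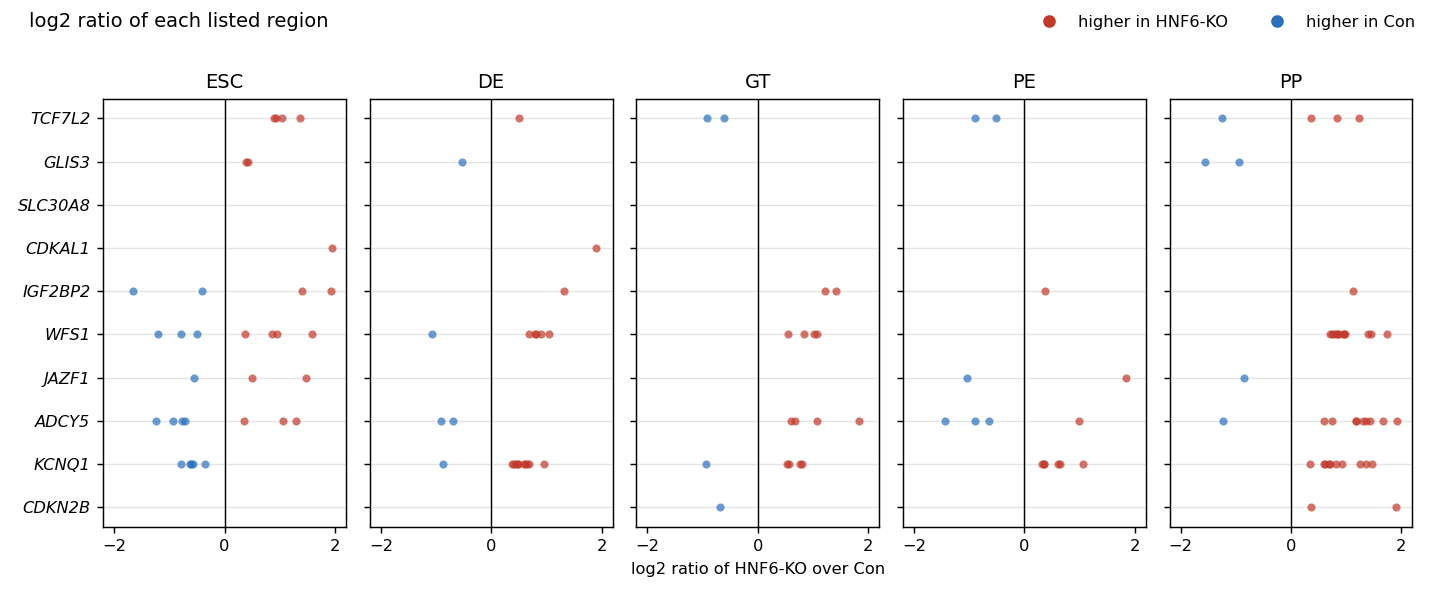
The log2 ratio of HNF6-KO over Con (horizontal axis) of each of the 131 listed regions, by locus (rows) and stage (panels); red points are higher in HNF6-KO and blue points higher in Con. At TCF7L2 the points lie right of 0 at ESC and DE, left of 0 at GT and PE and on both sides at PP.

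The few listed regions at TCF7L2 differed in direction between stages. Its 13 regions were higher in HNF6-KO at ESC (4 of 4) and DE (1 of 1), higher in Con at GT (2 of 2) and PE (2 of 2), and divided at PP (3 in HNF6-KO, 1 in Con). On the whole of chromosome 10 the HNF6-KO share was 50.2% at ESC, 45.1% at DE, 43.9% at GT and 44.1% at PE, and it was 95.4% at PP. In the flanks from 100 kb to 1 Mb on either side, HNF6-KO was higher in 3 of 7 regions at ESC, 5 of 15 at DE, 3 of 5 at GT, 1 of 8 at PE and 21 of 23 at PP. All but 3 of the 13 regions lay downstream of the start, within the length of the gene.

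Opposite directions were listed in overlapping regions 1.3 to 2.6 kb inside the gene. At ESC the region spanning 114710801 to 114711800 on chromosome 10 had 366, 348 and 440 in HNF6-KO and 160, 195 and 204 in Con cells (log2 ratio 1.04). At GT the region spanning 114711601 to 114712750 had 296, 214 and 304 in HNF6-KO and 371, 364 and 516 in Con cells (-0.62), and the genotypes were separated at both stages. At PE the region spanning 114712001 to 114713250 had 337, 405 and 441 in HNF6-KO and 674, 576 and 436 in Con cells (-0.51), with 1 Con value inside the HNF6-KO range. The ESC region shares bases with the GT region but not with the PE region, which overlaps that of GT.

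Further into TCF7L2, regions lower in HNF6-KO cells were listed at both pancreatic stages, beside PP regions that were higher. The region spanning 114717351 to 114717900 had 148, 139 and 78 in HNF6-KO and 205, 222 and 258 in Con cells at PE (-0.90). At PP the region spanning 114719151 to 114719600 had 91, 30 and 79 in HNF6-KO and 147, 201 and 131 in Con cells (-1.25). Values did not overlap between genotypes in either. Also at PP, but higher in HNF6-KO, the region 50.9 kb downstream (114760451 to 114761300) had 280, 211 and 311 in HNF6-KO and 71, 160 and 219 in Con cells (0.83, and 0.49 without the first Con value), with a small overlap. Upstream, the region spanning 114698101 to 114699550 had 744, 493 and 464 in HNF6-KO and 376, 396 and 427 in Con cells at DE (0.50, and 0.26 without the first HNF6-KO value). It covers a wild-type region of cluster 9, the only 1 of 4 cluster regions at this locus that was in a list. The other TCF7L2 regions had log2 ratios of 0.94, 0.90 and 1.37 at ESC, -0.91 at GT and 1.24 at PP. The last of these lay 13.7 kb downstream, without overlap of the genotypes. It was the next listed region after the PP region with a ratio of -1.25, which lay 9.4 kb downstream.

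At GLIS3 the only 2 regions listed at PP went against the listed regions around them, the downstream one named after its values were seen. Both were lower in HNF6-KO cells. By contrast, 12 of 12 PP regions in the flanks to 1 Mb, 85.8% of those of chromosome 9 and 88.7% of all listed PP regions were higher. On chromosome 9 the region spanning 4359301 to 4359900, 59.6 kb upstream of the start site, had 50, 44 and 36 in HNF6-KO and 132, 95 and 163 in Con cells (log2 ratio -1.56). The region spanning 4262851 to 4263400, 36.9 kb downstream, had 180, 121 and 124 in HNF6-KO and 286, 332 and 207 in Con cells (-0.95). The genotypes did not overlap in either, with a wide gap in the upstream region and nearest values of 180 and 207 in the downstream one. The downstream one overlaps a wild-type region of cluster 5 (4262671 to 4263170), and 57.6% of all cluster 5 regions overlapped some list. Next to the start site, the region spanning 4297451 to 4299100 had 982, 962 and 1102 in HNF6-KO and 735, 646 and 956 in Con cells at ESC (0.38). The overlapping region spanning 4297251 to 4298250 had 202, 373 and 348 in HNF6-KO and 595, 459 and 279 in Con cells at DE (-0.53), where the ranges crossed. That ratio was -0.30 without the first HNF6-KO value and -0.26 without the first Con value. No region was listed at GLIS3 at GT or PE.

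JAZF1 had 6 listed regions, 3 higher in HNF6-KO and 3 higher in Con cells. At PP its only region, 30.7 kb downstream of the start (chromosome 7, 28188851 to 28189700), was lower in HNF6-KO cells, with 60, 143 and 175 against 273, 225 and 185 in Con cells (log2 ratio -0.85, and -0.52 without the first HNF6-KO value). On chromosome 7, 79.9% of listed PP regions were higher in HNF6-KO, and in the flanks to 1 Mb 6 of 9 were. A place 79.3 kb upstream changed direction between stages. At ESC the region spanning 28299101 to 28299500 had 55, 87 and 93 in HNF6-KO and 33, 36 and 13 in Con cells (1.49). At PE the region spanning 28299001 to 28299450 had 72, 73 and 69 in HNF6-KO and 106, 113 and 227 in Con cells (-1.05, and -0.61 without the third Con value), and values did not overlap at either stage. Values of different stages may not share a scale, so at this place they are compared only within a stage. A narrow region upstream at PE (28229701 to 28229950) had 54, 31 and 92 in HNF6-KO and 21, 11 and 15 in Con cells (1.85). Farthest from the start site, 86.2 kb downstream, a region was listed as lower in HNF6-KO at ESC (28133001 to 28134650), with 301, 266 and 398 in HNF6-KO and 464, 598 and 355 in Con cells (-0.55, and -0.35 without the second Con value) and overlapping ranges.

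CDKN2B and CDKAL1 had few listed regions. Beside the CDKN2B start-site region, a region 12.7 kb downstream, toward the neighbouring gene CDKN2A, was lower in HNF6-KO cells at GT (chromosome 9, 21995651 to 21997000), with 147, 237 and 263 against 420, 331 and 295 in Con cells (log2 ratio -0.69). At PP a region 79.8 kb upstream (22088651 to 22088950) had 78, 87 and 26 in HNF6-KO and 19, 15 and 15 in Con cells (1.90). CDKAL1 had 1 region at ESC (chromosome 6, 20444201 to 20444500), with 47, 109 and 60 in HNF6-KO and 28, 12 and 14 in Con cells (1.94). It had another at DE (20571251 to 20571550), with 76, 73 and 30 in HNF6-KO and 8, 15 and 23 in Con cells (1.89). These ratios are among the largest of the 131 regions, and they come from narrow regions of low value in which the genotypes were nevertheless separated.

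IGF2BP2 was higher in HNF6-KO in 7 of its 9 regions, and the 2 Con regions were both at ESC. The share in the HNF6-KO lists was 68.1% over all listed regions, 69.5% on chromosome 3 and 63.1% in the flanks to 1 Mb, so a count of 7 of 9 is near the background. The 9 regions included 7 with a difference of at least 2-fold, where 45.4% of all listed regions reached it. These 7 were the narrower regions of the locus, 350 to 950 bp wide. Its leading region at PP lay 28.3 kb downstream of the start, within the length of the gene (chromosome 3, 185514251 to 185515200), with 447, 280 and 396 in HNF6-KO and 167, 243 and 105 in Con cells (log2 ratio 1.12). The authors' deposited table gives it a -log10 p of 15.3, the third highest of the 131 regions. At GT the region spanning 185472801 to 185473550 had 196, 130 and 155 in HNF6-KO and 87, 56 and 61 in Con cells (1.23). At ESC the 4 regions were divided, 2 in each direction. The region spanning 185565251 to 185565600, upstream, had 75, 68 and 94 in HNF6-KO and 10, 1 and 49 in Con cells (1.93, and 3.62 without the third Con value). The region spanning 185529401 to 185529750, downstream, had 41, 23 and 6 in HNF6-KO and 77, 69 and 81 in Con cells (-1.66). Values did not overlap in these 4 IGF2BP2 regions. The other two ESC regions, both downstream, had ratios of 1.41 (86.7 kb from the start, no overlap) and -0.42 (1.3 kb from it, with overlap). At DE the region spanning 185597051 to 185597550 had 217, 70 and 60 in HNF6-KO and 40, 30 and 67 in Con cells (1.32, and 0.50 without the first HNF6-KO value), and its highest HNF6-KO value stood well above the other two, 1 of which lay inside the Con range.

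Around WFS1 the regions listed at the progenitor stage went the way of the surrounding DNA. All 12 listed there at PP, between 17.8 kb upstream and 96.8 kb downstream of the start, were higher in HNF6-KO. Their log2 ratios ran from 0.71 to 1.73, and values did not overlap in 11 of them. The gene is 33.4 kb long, so the farthest downstream lay beyond its end. HNF6-KO was also higher in 97.6% of the listed PP regions of chromosome 4 and in 54 of 55 in the flanks to 1 Mb. Before PP, HNF6-KO was higher in 4 of 7 regions at ESC, 5 of 6 at DE and 4 of 4 at GT, and at PE none was listed. The shares on chromosome 4 were 89.7% at ESC, 70.7% at DE and 79.4% at GT, and in the flanks HNF6-KO was higher in 24 of 30 regions at ESC, 43 of 46 at DE and 17 of 18 at GT. By p the leading PP region lay 6.1 kb downstream of the start, inside the length of the gene (chromosome 4, 6277351 to 6278800), with 416, 282 and 297 in HNF6-KO and 161, 181 and 161 in Con cells (0.98). A wild-type region of cluster 8 lay 0.6 kb before the start site and overlapped the ESC region described above.

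Regions lower in HNF6-KO cells at WFS1 lay downstream of the start and were listed before the gut tube stage. At ESC the region spanning 6293901 to 6294950 had 67, 115 and 105 in HNF6-KO and 266, 253 and 147 in Con cells (-1.21). At DE the region spanning 6306701 to 6308200 had 150, 181 and 93 in HNF6-KO and 351, 257 and 285 in Con cells (-1.07). Beyond the end of the gene, on the side of the neighbouring gene PPP2R2C, 2 places turned from lower at ESC to higher later. Whether they lie inside PPP2R2C was not examined. Centred 57.3 kb downstream, the region spanning 6328601 to 6329950 had 395, 391 and 405 in HNF6-KO and 505, 724 and 446 in Con cells at ESC (-0.49, and -0.26 without the second Con value). At DE the region spanning 6329701 to 6331550 had 731, 583 and 513 in HNF6-KO and 261, 291 and 495 in Con cells (0.80). At PP the region spanning 6328901 to 6329900 had 471, 302 and 286 in HNF6-KO and 162, 224 and 259 in Con cells (0.71, and 0.45 without the first HNF6-KO value). HNF6-KO was thus below every Con value at ESC and above every Con value at both later stages. Centred 97.3 kb downstream, the region spanning 6368801 to 6369750 had 191, 161 and 123 in HNF6-KO and 247, 294 and 283 in Con cells at ESC (-0.79). At PP the region spanning 6368201 to 6369450 had 307, 228 and 226 in HNF6-KO and 136, 139 and 142 in Con cells (0.86). The genotypes were separated at this place too, at both stages, and each of the 2 places holds a wild-type cluster region, of cluster 1 and cluster 9. Upstream, the leading regions were higher in HNF6-KO: 388, 371 and 316 against 174, 180 and 234 in Con cells at ESC (6197201 to 6198400, 0.87), and 314, 227 and 341 against 139, 186 and 165 in Con cells at GT (6227901 to 6229300, 0.84).

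ADCY5 was mixed, with 17 regions higher in HNF6-KO and 10 higher in Con cells. HNF6-KO was the higher genotype in 3 of 7 regions at ESC, 0 of 2 at DE, 4 of 4 at GT, 1 of 4 at PE and 9 of 10 at PP. On chromosome 3 the HNF6-KO share of listed regions was 49.7% at ESC, 42.1% at DE, 80% at GT and 68.5% at PE, and it was 94.0% at PP. Of the 27 regions, 19 lay downstream of the start, within the length of the gene. The exception at PP was 7.6 kb downstream (chromosome 3, 123159001 to 123159700), with 140, 52 and 112 in HNF6-KO and 269, 197 and 250 in Con cells (log2 ratio -1.23), and its -log10 p of 11.2 in the authors' deposited table is the highest of any ADCY5 region at PP. The same place was higher in HNF6-KO at ESC, where the overlapping region spanning 123159501 to 123160200 had 145, 203 and 128 in HNF6-KO and 65, 70 and 92 in Con cells (1.06).

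Other ADCY5 regions also changed direction with stage. Just upstream of the start, the region spanning 123169401 to 123170550 had 209, 154 and 164 in HNF6-KO and 345, 269 and 239 in Con cells at DE (-0.69). At GT the region spanning 123168551 to 123170200 had 428, 410 and 458 in HNF6-KO and 318, 256 and 232 in Con cells (0.68). Both were separated. Centred 95.6 kb downstream, the region spanning 123070651 to 123072150 had 551, 291 and 250 in HNF6-KO and 182, 237 and 299 in Con cells at PP (0.60, and 0.18 without the first HNF6-KO value), with overlapping ranges. At ESC the regions inside and beside it were lower in HNF6-KO, with 205, 157 and 189 against 330, 301 and 274 in Con cells (123070901 to 123071600, -0.71) and 145, 86 and 184 against 243, 164 and 299 in Con cells (123071851 to 123072750, -0.76). The leading ESC region, from 123107501 to 123110000, had 264, 257 and 251 in HNF6-KO and 504, 477 and 503 in Con cells (-0.94). Its spread was small within both genotypes, and all 3 HNF6-KO values lay far below the Con values. At PE the region spanning 123150051 to 123152300 had 606, 511 and 460 in HNF6-KO and 505, 889 and 1056 in Con cells (-0.63, and -0.41 without the third Con value), and the first Con value fell within the HNF6-KO range. The PE region spanning 123141051 to 123141600 went the other way, with 189, 95 and 178 in HNF6-KO and 97, 74 and 61 in Con cells (0.98), also with overlap. At PP the region spanning 123186601 to 123187350, upstream, had 173, 180 and 94 in HNF6-KO and 84, 60 and 35 in Con cells (1.31).

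KCNQ1 was the locus with the most listed regions, and its direction changed as the cells left the undifferentiated state. All 5 regions listed at ESC were lower in HNF6-KO cells, with log2 ratios from -0.78 to -0.36. From DE onward 30 of 32 regions were higher in HNF6-KO: 10 of 11 at DE, 4 of 5 at GT, 6 of 6 at PE and 10 of 10 at PP. The change extended beyond the window. In the flanks from 100 kb to 1 Mb, 18 regions were higher and 66 lower in HNF6-KO at ESC, and 62 were higher and 3 lower at DE. Over the whole of chromosome 11 the HNF6-KO share was 52.6% at ESC, 79.9% at DE, 84.2% at GT, 38.8% at PE and 89.2% at PP. At PE, where all 6 regions at the locus were higher in HNF6-KO, the flanks held 21 higher and 17 lower.

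**Figure D4:**
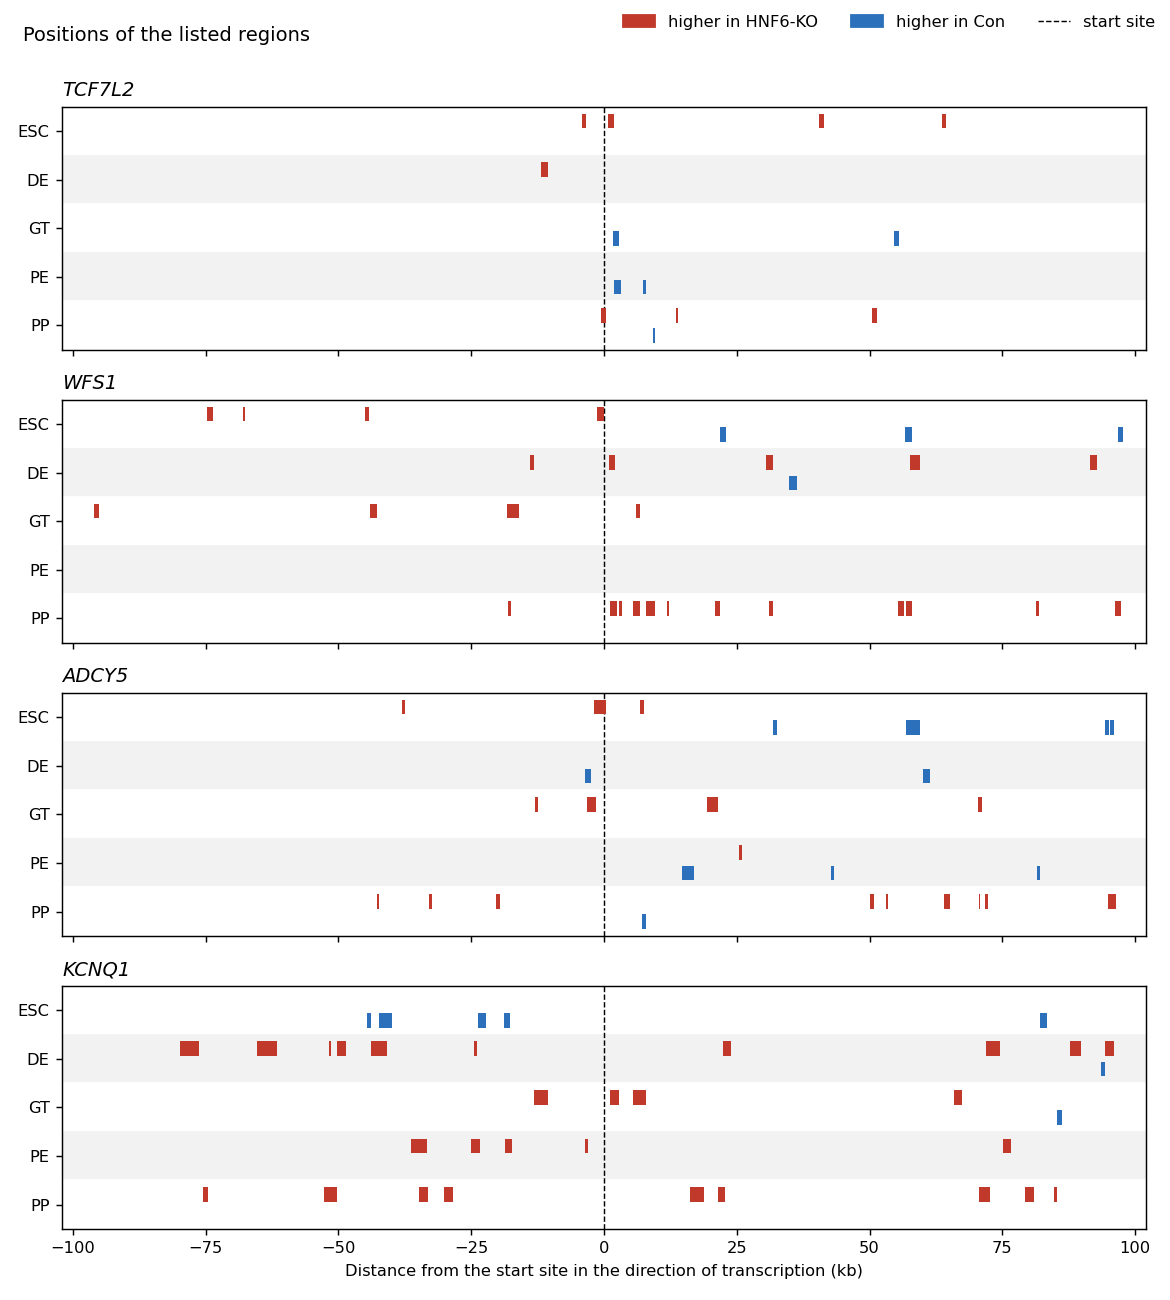
Positions of listed regions at TCF7L2, WFS1, ADCY5 and KCNQ1, as distance from the start site in kb along the direction of transcription (horizontal axis, to scale) and by stage (rows); red bars (upper) are higher in HNF6-KO and blue bars (lower) higher in Con. At KCNQ1 the 5 ESC bars are all blue and the PE and PP bars all red.

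A difference of at least 2-fold was found in 4 of the 37 KCNQ1 regions, where 45.4% of all listed regions reached it. Of the 37, 21 lay upstream of the start, on the side of the neighbouring genes TRPM5, TSSC4 and CD81, and 16 downstream. Which of the 21 lie inside a neighbouring gene was not examined. The leading PP region was 71.7 kb downstream, within the length of the gene (chromosome 11, 2536701 to 2538700), with 664, 482 and 484 in HNF6-KO and 317, 299 and 238 in Con cells (0.93). Its -log10 p of 16.3 in the authors' deposited table is the highest of the 131 regions. The leading region of the earlier stages was upstream at GT (2452801 to 2455350), with 658, 804 and 702 in HNF6-KO and 485, 383 and 368 in Con cells (0.81). At PE the region spanning 2429551 to 2431350 had 1927, 1485 and 1533 in HNF6-KO and 1343, 1142 and 1497 in Con cells (0.31, and 0.18 without the first HNF6-KO value), and 1 Con value lay within the HNF6-KO range. Nearest to the start site, the region spanning 2467051 to 2468750 had 478, 436 and 429 in HNF6-KO and 346, 307 and 253 in Con cells at GT (0.57), with no overlap. The 2 Con regions after ESC, at GT and DE, lay 85.8 and 94.0 kb downstream and had ratios of -0.95 and -0.87.

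Upstream of KCNQ1, regions listed in opposite directions lay at the same merged places. Centred 22.9 kb upstream, the region spanning 2442401 to 2443850 had 289, 278 and 336 in HNF6-KO and 505, 451 and 440 in Con cells at ESC (-0.63). At PE the overlapping region spanning 2440951 to 2442600 had 1249, 910 and 1072 in HNF6-KO and 850, 850 and 812 in Con cells (0.36), and at DE the region inside it, from 2441551 to 2442050, had 375, 236 and 263 in HNF6-KO and 188, 162 and 194 in Con cells (0.68). All 3 were separated. The ESC region shares 200 bp with the PE region and no base with the DE region. Centred 18.3 kb upstream, the ESC region spanning 2447051 to 2448250 had 177, 208 and 191 in HNF6-KO and 472, 122 and 400 in Con cells (-0.78). Its ratio was -0.44 without the first Con value and -1.18 without the second. The PE region spanning 2447301 to 2448650 had 457, 285 and 416 in HNF6-KO and 213, 338 and 185 in Con cells (0.65), and the genotypes overlapped in both. Around 42.4 kb upstream, the ESC regions from 2421501 to 2422150 (802, 777 and 857 in HNF6-KO, 1188, 960 and 970 in Con cells, -0.36) and from 2423601 to 2426050 (315, 421 and 484 in HNF6-KO, 712, 459 and 681 in Con cells, -0.60) overlapped a DE region, the first of them by 50 bp. That region, from 2422101 to 2425050, had 1240, 815 and 941 in HNF6-KO and 861, 752 and 636 in Con cells (0.41, and 0.23 without the first HNF6-KO value). The genotypes were separated in the first of these 3 regions and overlapped in the other two.

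Merged where they shared at least 1 bp, the 131 regions formed 104 places, of which 84 were listed at a single stage and 20 at several. Of these 20, 9 were higher in HNF6-KO each time, 11 were listed in opposite directions at different stages and none was lower in HNF6-KO each time. Merged alike, the whole series had 77186 places, of which 9919 (12.9%) were listed at several stages. Of these, 42.2% were higher in HNF6-KO each time, 48% were listed in opposite directions and 9.79% were lower in HNF6-KO each time. Of the 9 places at the loci that were higher in HNF6-KO each time, 4 were at WFS1, 4 at KCNQ1 and 1 at ADCY5. Lists of different stages share no libraries.

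**Figure D5:**
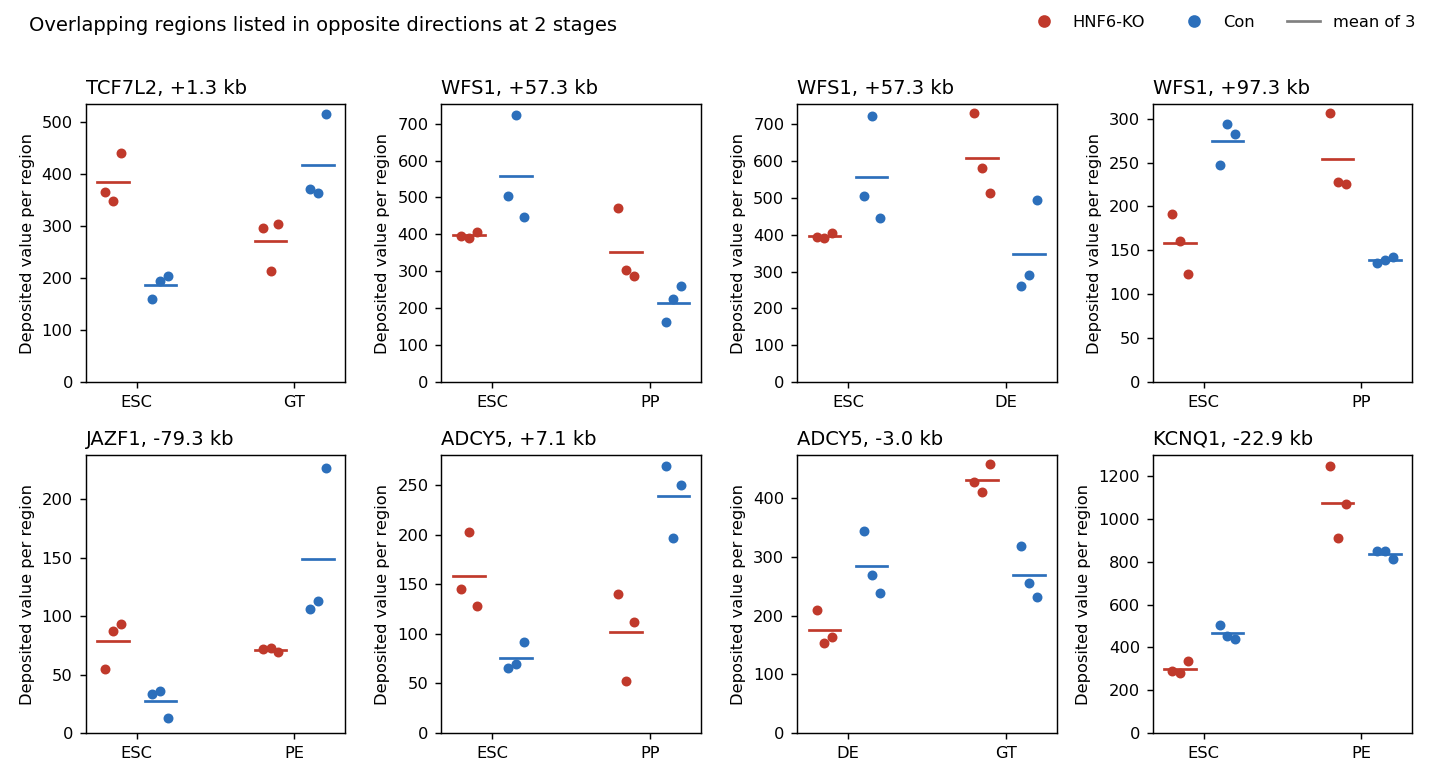
Values (vertical axes, linear, per region) of the 8 pairs of overlapping regions listed in opposite directions at 2 stages without overlap of the genotypes at either; red points (left) are HNF6-KO, blue points (right) Con and bars the means of 3. Titles give the distance in kb of the earlier-stage region from the start site along the direction of transcription.

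The wild-type clusters add which of these places were among the peaks the authors grouped in control cells. Only 6 loci held cluster regions: WFS1 6, TCF7L2 and ADCY5 4 each, GLIS3 and KCNQ1 2 each and CDKAL1 1. Of the 19 regions, 7 overlapped a listed region (36.8%, exact 95% binomial interval 16.3 to 61.6), and 38.4% of all cluster regions did. Clusters 9, 8 and 7 contributed 5, 4 and 3 of them, and cluster 3 none. Cluster numbers here are those in the names of the lists. A different number is written inside every list, such as 8 inside list 9, 7 inside list 8 and 2 inside list 5, so a number does not identify a cluster beyond these lists. Of the 7, 3 were lower in HNF6-KO at ESC and higher at PP: the 2 WFS1 places above, of clusters 1 and 9, and a region of cluster 7 at ADCY5 (123070781 to 123071280). A cluster 6 region near the ADCY5 start site was higher in HNF6-KO at ESC and at GT. The sources used here do not say what profile a cluster number denotes.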

How the data were processed

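ATAC-seq of 30 samples, 3 for each genotype at each stage, was read from 10 lists of differential regions and 9 lists of wild-type cluster regions deposited by the authors. Bowtie2, MACS2 and hg19 are named in the submitters' processing notes. The sources used here give neither the method that called the differential regions nor the scaling of the values. Each listed region in the authors' deposited tables carries a log2 ratio (Con over HNF6-KO), a -log10 p of at least 5 and 3 values for each genotype as a score of unknown unit. The genotype of each set of 3 was read from the direction of the lists, which held for all 89929 regions, and log2 ratios were recomputed as HNF6-KO over Con with 1 added to each mean. The 10 genes were chosen with earlier results of these data known. A planned comparison with other genes is not reported here.

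Regions sharing at least 1 bp with the 100 kb on either side of a start site were kept. Values were given in full for the region with the highest -log10 p of each list and stage at a locus (at loci with over 6 such regions, of PE, of PP and of the other stages), for places listed at 3 stages or in opposite directions, and for the region nearest each start site. The second GLIS3 region at PP was named after its values were seen. Alternatives were distance, overlap of values, -log10 p, midpoints, cluster overlap, the added number, leaving out each value and stricter merging. Window and overlap steps were tested on 4000 simulated sets with 0 disagreements. Promoters came from RefSeq (GRCh38.p14), which held 7 of the 10 genes. Python 3.11.15, numpy 2.4.6 and scipy 1.17.1 were used. Exon and intron positions are not given, since no hg19 annotation was used.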

Additional observations from a re-analysis of the deposited data

Results flagged for a closer look

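At 5 of the 10 loci, 8 pairs of overlapping regions were listed in opposite directions at different stages, with values of the genotypes that did not overlap at either stage. The pairs hold 15 regions, since 1 WFS1 region is in both of its pairs. Opposite directions were common in the series, at 48% of all places listed at several stages. That share counts merged places, also those where values overlapped. Values did not overlap in 78.5% of all listed regions. The difference between the stages was not tested. All ratios are log2 of HNF6-KO over Con.

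At TCF7L2, 1.3 kb into the gene, the ratio was 1.04 at ESC and -0.62 at GT. At JAZF1, 79.3 kb upstream, it was 1.49 at ESC and -1.05 at PE. At ADCY5, 7.1 kb downstream of the start, it was 1.06 at ESC and -1.23 at PP. In these 3 pairs HNF6-KO was the higher genotype at the earlier stage.

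In the other pairs HNF6-KO was the lower genotype at the earlier stage. At WFS1, 57.3 kb downstream, the ratio was -0.49 at ESC, 0.80 at DE and 0.71 at PP. Centred 97.3 kb downstream of the same gene it was -0.79 at ESC and 0.86 at PP. At ADCY5, 3 kb upstream, it was -0.69 at DE and 0.68 at GT. At KCNQ1, 22.9 kb upstream, it was -0.63 at ESC and 0.36 at PE. Regions of a pair shared between 200 bp (TCF7L2, KCNQ1 and the ADCY5 pair of ESC and PP) and 1000 bp (WFS1, ESC and PP). The WFS1 ratios of -0.49 and 0.71 were -0.26 without the second Con value and 0.45 without the first HNF6-KO value, and the JAZF1 ratio of -1.05 was -0.61 without the third Con value.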

How the results depend on the processing

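The number of listed regions, 131 within 100 kb, was 78 within 50 kb and 252 within 200 kb. With a -log10 p of at least 10 in the authors' deposited tables it was 15; the HNF6-KO share was then 33.3% at ESC (3 regions) and 100% at GT (1 region), and 0% of the 19 cluster regions overlapped such a region. Among the other counts and shares, the HNF6-KO share at ESC was 43.9% within 200 kb, against 54.5% within 100 kb, so that Con became the more frequent genotype, and the cluster share was 57.1% within 50 kb (7 regions) and 31.4% within 200 kb, against 36.8%. Both stayed inside the wide intervals of the values within 100 kb. Of the log2 ratios of the 64 regions named by rule, 18 moved by over 1.5 times in size when 1 of the 6 values was left out, and these are given beside each value. None changed sign, which also held with 10 in place of 1 added to each mean. No paired analysis was possible because the 3 values of a region carry no replicate numbers.

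Every region had passed the authors' own threshold, so places that differed less are outside these counts, and no listed region at SLC30A8 does not mean no open region there. Depth per library is unknown.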
